A study of Rattus norvegicus with 6 samples.

Results

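The immediate early transcription factors are 10 genes of 15645 with a symbol on the array (Fos, Fosb, Jun, Junb, Egr1, Egr2, Atf3, Ier2, Nr4a1 and Klf4), measured by 13 of the 61537 probes of each array and picked through the RefSeq transcript that each probe names. On the assembly GRCr8 they lie on chromosomes 6 (Fos), 1 (Fosb), 5 (Jun and Klf4), 19 (Junb and Ier2), 18 (Egr1), 20 (Egr2), 13 (Atf3) and 7 (Nr4a1). They were followed in the renal cortex, the outer part of the kidney, of male Sprague-Dawley (Crl:CD(SD)) rats bought at 5 weeks of age. Dipropylene glycol (DPG), a glycol solvent, had been given to 3 rats at 1000 mg/kg/day for 4 weeks, and 3 control rats had received water for the same time. Each rat's RNA went onto an Agilent one-colour array of its own after Cy3 labelling. Of the 10 genes, 9 had a probe well above background on every array of at least 1 group and were tested, while Egr2 did not.

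Immediate early genes are switched on within minutes of a stimulus, without the need for new protein. Signals from growth factors, stress or depolarisation reach them through kinase cascades that act on the serum response factor SRF with its ternary complex partners, and on CREB. In the kidney they are known to respond to ischaemia, to toxic injury and to the handling of tissue.

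Levels are given as the processed signal of a probe divided by the 75th percentile of its array, so that 1 stands for that percentile. They were set side by side only within a probe. Between 39556 probes (water 3) and 43184 (water 2) were well above background on the water arrays, against 41524 to 41937 on the DPG arrays, and water 3 also held 34 spots with outlier flags, the most of any array. The DPG arrays shared 1 slide and scan and the water arrays shared another, so the slide cannot be told apart from the treatment. Renal cortex markers were present: all 6 proximal tubule genes, all 3 thick limb and distal genes and all 4 podocyte genes could be tested, and 0 of 3 adrenal cortex genes could. The podocyte genes summed to between 23.5 and 29.9 in DPG and between 24.7 and 32.5 in water, ranges that overlap. With 3 arrays a group, their number sets the precision.

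The question was whether rats on DPG differed from rats on water in these genes at the end of treatment. None of the 9 tested members passed the adjusted threshold of 0.05 (limma with Benjamini-Hochberg adjustment over 29647 features), with adjusted p between 0.331 (Fos) and 0.960 (Jun). The same test called 0 of all features (0%), the lowest adjusted p being 0.125. At an unadjusted p of 0.05 by limma, Fos was lower and Klf4 higher in the DPG rats, which is 2 of 9 members (22.2%), where 12.4% of all features passed (6.68% higher and 5.7% lower). Of the 9 members 7 had a log2 fold change above 0, as did 50.8% of all features, and their median was 0.10 on the log2 scale, where the median of all features was 0.00. Since this is whole cortex, a change in the number of cells of a type and a change in RNA per cell cannot be told apart.

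**Figure D1:**
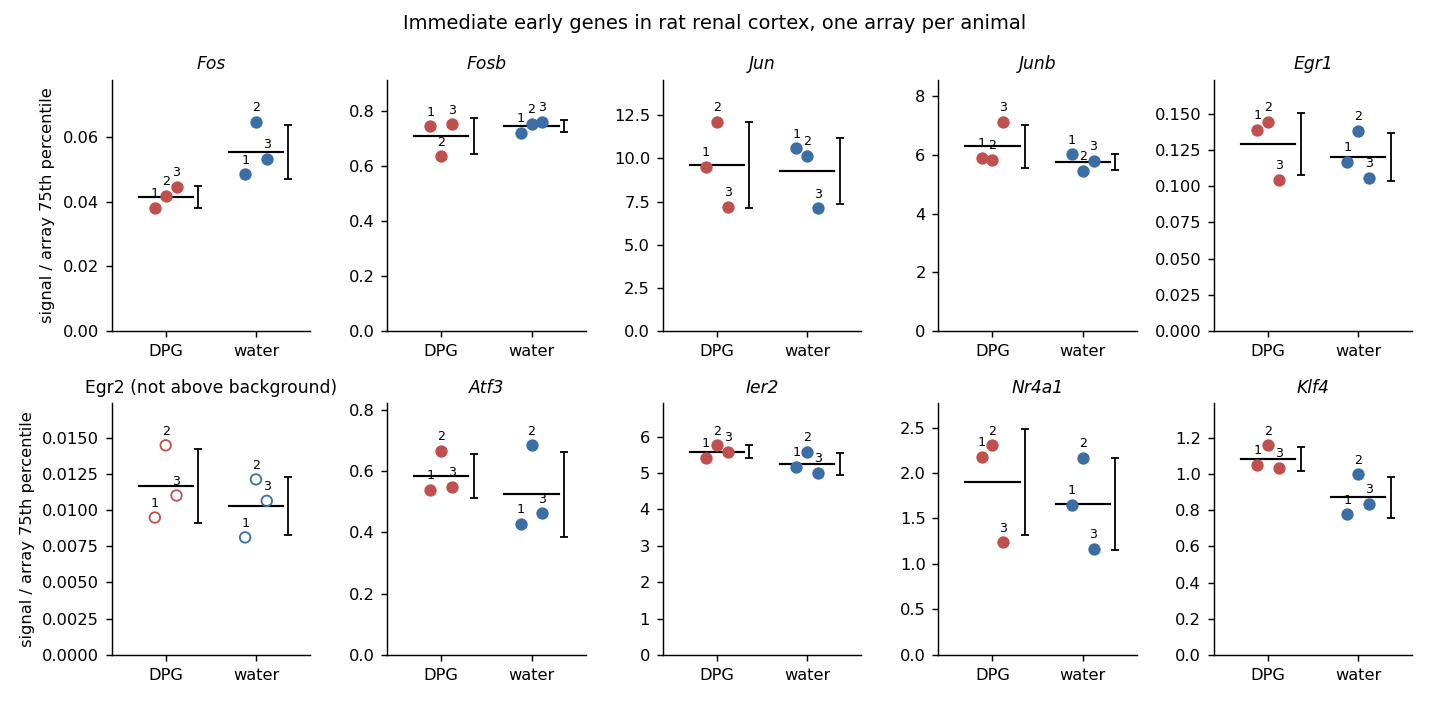
Level of each member (processed signal over the array's 75th percentile, linear axes from 0) in each rat, DPG on the left and water on the right. Points are single arrays numbered by animal, horizontal lines are group means, and bars show the mean ± SD (n = 3 each). Only for Fos and Klf4 do the 3 DPG rats and the 3 water rats not overlap. Open circles for Egr2 mark a probe that was not well above background on any array.

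Fos and Fosb encode the FOS side of AP-1, a DNA-binding dimer in which a FOS protein needs a JUN protein as its partner. The Fos probe read 0.0380, 0.0418 and 0.0445 in DPG rats 1 to 3, against 0.0484, 0.0647 and 0.0531 in water rats 1 to 3. All 3 DPG rats were below all 3 water rats, with a mean level of 0.0414 ± 0.0033 in DPG and 0.0554 ± 0.0084 in water (SD, n = 3 each). The log2 fold change was -0.41 ± 0.13 (SE, n = 3 each), with an unadjusted p = 0.0185 and an adjusted p = 0.331 by limma. With normexp background correction the log2 fold change of Fos was -0.16 (unadjusted p = 0.0611 by limma), and without DPG 1 its unadjusted p = 0.0614 by limma.

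Fos had a second probe, A_64_P131051, on the same transcript, which was well above background on only 2 of 3 arrays in each group and was left out of the test. It read 0.0213, 0.0304 and 0.0374 in the DPG rats and 0.0243, 0.0246 and 0.0189 in the water rats. Its groups overlapped, and its mean was higher in DPG (0.0297) than in water (0.0226), opposite in direction to the tested probe. No fold is given for it, since these readings lay at or near background. The tested Fos probe was dim as well, at 0.0380 to 0.0647, though well above background on every array. Fosb, an alternative FOS partner, read 0.744, 0.635 and 0.751 in the DPG rats, against 0.720, 0.751 and 0.761 in the water rats. Its groups overlapped, and its log2 fold change was -0.07 ± 0.09 (SE), with a 95% interval from -0.29 to 0.14. Without DPG 2 the value for Fosb was 0.01.

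Jun and Junb encode the JUN side of AP-1. JUN can pair with itself and activates strongly, while JUNB is known as a weaker activator that can hold JUN in check. Jun read 9.51, 12.1 and 7.19 in the DPG rats and 10.6, 10.1 and 7.10 in the water rats. The third rat of each group was the lowest, the groups overlapped over most of their range, and the log2 fold change was 0.04 ± 0.24 (SE), with a 95% interval from -0.54 to 0.63. A second Jun probe gave 2.95, 3.49 and 2.09 in DPG and 3.56, 2.89 and 2.56 in water, again with the third rat of each group lowest, and a log2 fold change of -0.10 ± 0.22. The sign of the Jun difference also turned without DPG 2 and without water 3 (-0.14 each).

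Junb read 5.90, 5.82 and 7.13 in the DPG rats, against 6.02, 5.46 and 5.80 in the water rats. DPG 3 stood above the other 5 rats and the groups overlapped, with a log2 fold change of 0.12 ± 0.10 (SE), which was 0.03 without DPG 3. The second Junb probe, A_43_P12125, read 0.146, 0.137 and 0.169 in DPG and 0.119, 0.131 and 0.127 in water. On that probe every DPG rat was above every water rat, and the log2 fold change was 0.26 ± 0.10 (SE, n = 3 each), with an unadjusted p = 0.0408 and an adjusted p = 0.388 by limma over 40383 probes. Both Junb probes had the same sign, while the 2 probes of Jun did not. The 2 probes of Fos also differed in direction, the second of them at or near background.

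**Figure D2:**
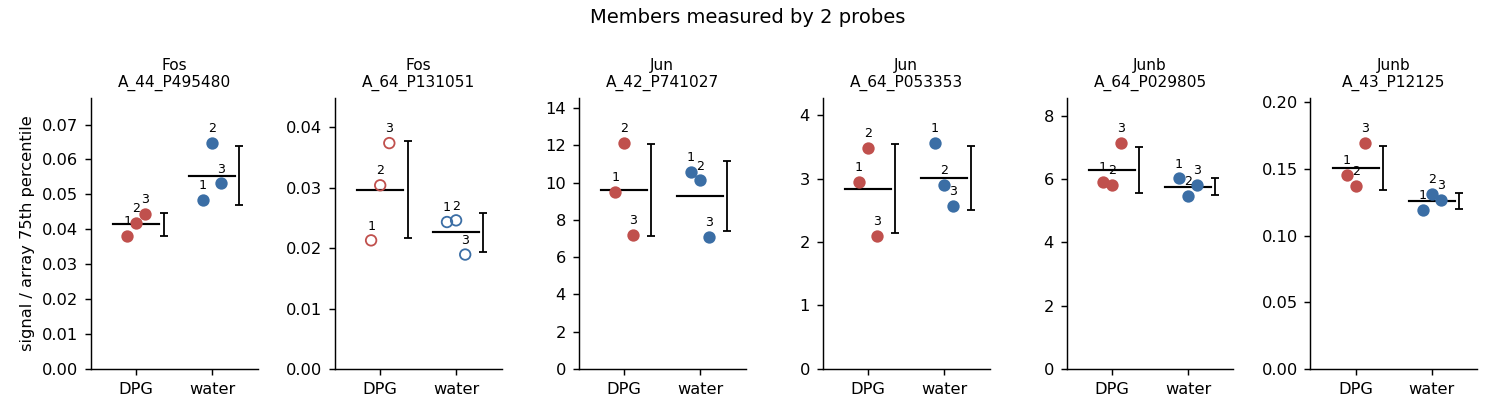
Level of each probe (processed signal over the array's 75th percentile, linear axes from 0) for Fos, Jun and Junb, the members with 2 probes, with DPG on the left and water on the right of each panel. The brighter probe of each gene comes first, points are single rats numbered by animal, bars show the mean ± SD (n = 3 each), and open circles mark the Fos probe left out of the test. The groups do not overlap on the first Fos probe and on the second Junb probe.

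Egr1 and Egr2 encode zinc finger factors that bind GC-rich sites, and EGR1 is held back by the corepressors NAB1 and NAB2. Egr1 read 0.139, 0.145 and 0.104 in the DPG rats and 0.117, 0.138 and 0.106 in the water rats. The third rat was again the lowest of each group and the groups overlapped. The mean level was 0.129 ± 0.022 in DPG and 0.120 ± 0.017 in water (SD, n = 3 each), and the log2 fold change was 0.10 ± 0.16 (SE), with a 95% interval from -0.30 to 0.50. The Egr1 value was 0.01 without DPG 2 or without water 3, 0.04 without DPG 1, 0.20 without water 2 and 0.24 without DPG 3. The Egr2 probe was not well above background on any of the 6 arrays, where it read 0.0095 to 0.0145 in DPG and 0.0081 to 0.0121 in water, so no fold is given for it.

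Atf3, which encodes a stress-induced factor of the bZIP family that often acts as a repressor, read 0.538, 0.666 and 0.547 in the DPG rats and 0.427, 0.684 and 0.462 in the water rats. Water 2 was the highest of all 6 rats and water 1 the lowest, so the water group spanned the whole DPG group. The log2 fold change of Atf3 was 0.18 ± 0.20 (SE), and its 95% interval ran from -0.31 to 0.67. Without water 2 the Atf3 value was 0.39 with an unadjusted p = 0.0276 by limma (adjusted p = 0.398), and it was 0.05 without water 1, 0.08 without DPG 2 and 0.10 without water 3. Ier2, a small nuclear regulator induced by serum, read 5.42, 5.76 and 5.58 in DPG and 5.18, 5.59 and 4.99 in water. These were the steadiest values of the 9 members, and the groups overlapped with a log2 fold change of 0.09 ± 0.07 (SE) and a 95% interval from -0.09 to 0.27. The Ier2 value was 0.05 without water 3 and 0.14 without water 2.

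Nr4a1, an orphan nuclear receptor also known as Nur77, read 2.18, 2.30 and 1.24 in the DPG rats, against 1.65, 2.17 and 1.16 in the water rats. Its highest level was 1.98 times its lowest, yet the groups overlapped, with DPG 3 below water 1 and water 2. DPG 3 and water 3 were the 2 lowest rats. The log2 fold change of Nr4a1 was 0.19 ± 0.32 (SE), and the 95% interval, from 0.661-fold to 1.98-fold, was the widest of the 9 members. Its log2 fold change was -0.04 without water 3, 0.03 without DPG 2, 0.07 without DPG 1, 0.41 without water 2 and 0.48 without DPG 3.

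Klf4, a Kruppel-like zinc finger factor tied to growth arrest and differentiation of epithelia and endothelium, read 1.05, 1.16 and 1.04 in the DPG rats, against 0.776, 0.998 and 0.836 in the water rats. Each DPG rat was above each water rat. The mean level was 1.08 ± 0.07 in DPG and 0.870 ± 0.115 in water (SD, n = 3 each). The log2 fold change was 0.32 ± 0.11 (SE, n = 3 each), which is 1.25-fold between geometric means, with an unadjusted p = 0.0296 and an adjusted p = 0.360 by limma. Leaving out 1 rat at a time put it between 0.24 and 0.42, with an unadjusted p between 0.00577 (without water 2) and 0.0899 (without DPG 2) by limma. That p also exceeded 0.05 without DPG 1 (0.0569), water 1 (0.0869) or water 3 (0.0801). Of the 9 members 2 (22.2%) had groups that did not overlap, where 19.7% of all features did (10.7% with DPG above and 8.96% with DPG below).

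**Figure D3:**
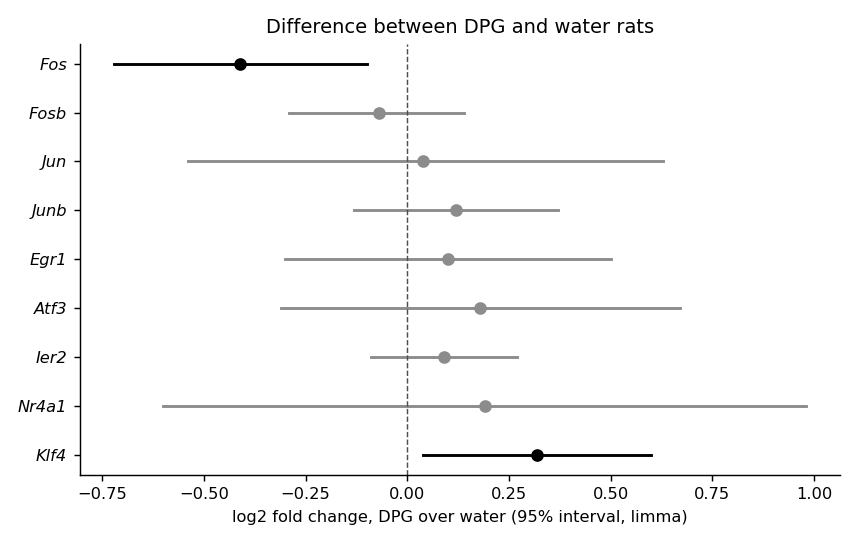
Log2 fold change of the 9 tested members, DPG over water, as points with limma's 95% interval as lines (3 rats per group). Fos, from -0.72 to -0.10, and Klf4, from 0.04 to 0.60, are drawn in black because their unadjusted p lies under 0.05; the intervals of the other 7 include 0.

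Several members varied widely between rats of 1 group. The pooled SD within groups of Nr4a1 was 0.47 on the log2 scale, higher than that of 93.9% of all features. That of Jun was 0.35 (87.8%), that of Atf3 0.28 (81.8%) and that of Egr1 0.23 (73.6%), where the median feature had 0.14. Ier2 lay at the other end, with 0.07 and only 15.9% of features below it. Nr4a1 and Egr1 ordered the 4 highest rats alike, as DPG 2, DPG 1, water 2 and water 1, and had the third rat of each group at the bottom. Nr4a1 stood 0.42 above its mean over the 6 arrays in DPG 2 and 0.33 above it in water 2, and 0.48 and 0.57 below it in DPG 3 and water 3.

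Among the 9 members, DPG 2 was the highest of the DPG rats for 6 (66.7%), where it was so for 32.0% of all features, and water 2 was the highest of the water rats for 6 (66.7%), against 33.5% of all features. DPG 3, water 1 and water 3 were each the lowest of their group for 4 members (44.4%), against 32.6%, 29.5% and 37.6% of all features. Of 32 immediate early feedback and effector genes, 17 (53.1%) were highest in DPG 2 among the DPG rats and 21 (65.6%) lowest in DPG 3. In the water rats these genes were highest in water 2 for 14 (43.8%) but lowest there for 11 (34.4%), and lowest in water 3 for 15 (46.9%). Of the 10 partners and corepressors, DPG 2 was the lowest of the DPG rats for 5 (50%) and the highest for 4 (40%). Water 3 was also the array with the fewest probes above background, and the summed level of 7 leukocyte markers was 123, 100.3 and 136 in DPG rats 1 to 3 and 102, 124 and 109 in water rats 1 to 3. The part of either in the order of the rats was not tested.

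**Figure D4:**
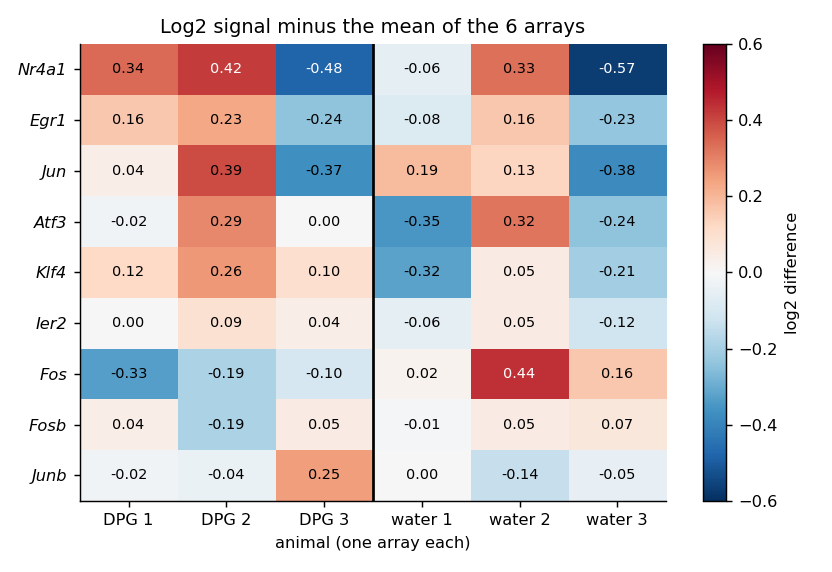
Log2 signal of each tested member in each rat minus the mean of that member over the 6 arrays (colour and printed number), with the DPG rats left of the black line and the water rats right of it. Nr4a1, Egr1 and Jun are lowest in the third rat of both groups, and Fos is the only member with negative values in all 3 DPG rats and positive values in all 3 water rats.

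The promoters of Nr4a1, Egr1 and Ier2 are shown because the first 2 genes moved alike between rats while the third hardly varied. The sequences are those of RefSeq on the build GRCr8 for the 250 bases before the start of each gene, which the table used here held for 7 of the 10 members (Fosb, Junb, Egr1, Egr2, Ier2, Nr4a1 and Klf4). The starts listed for Fosb and Klf4 may be alternative ones, so those 2 windows may not be the main promoters. Capitals mark matches, on either strand, to the CArG box bound by SRF, to the cAMP response element TGACGTCA and its shorter form TGACG (which the full element holds on both strands), to the AP-1 site TGANTCA or to the EGR site GCGNGGGCG.
Nr4a1, chr7:134259888-134260137, plus strand: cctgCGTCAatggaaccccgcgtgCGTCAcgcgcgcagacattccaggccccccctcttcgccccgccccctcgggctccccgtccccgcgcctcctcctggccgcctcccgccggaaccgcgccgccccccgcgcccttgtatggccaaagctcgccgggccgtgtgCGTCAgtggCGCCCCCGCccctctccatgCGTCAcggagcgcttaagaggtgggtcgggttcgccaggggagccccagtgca
Egr1, chr18:26736828-26737077, plus strand: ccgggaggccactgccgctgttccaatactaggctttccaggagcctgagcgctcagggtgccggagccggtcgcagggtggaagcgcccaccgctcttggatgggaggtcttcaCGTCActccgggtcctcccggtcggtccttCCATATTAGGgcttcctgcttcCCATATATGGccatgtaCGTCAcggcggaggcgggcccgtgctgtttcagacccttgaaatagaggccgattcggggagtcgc
Ier2, chr19:40399123-40399372, plus strand: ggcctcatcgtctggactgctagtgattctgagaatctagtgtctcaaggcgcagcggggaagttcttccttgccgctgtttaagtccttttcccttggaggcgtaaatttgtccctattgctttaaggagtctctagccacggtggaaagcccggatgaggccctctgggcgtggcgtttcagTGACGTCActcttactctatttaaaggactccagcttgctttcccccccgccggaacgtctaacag

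The Egr1 window held 2 CArG boxes, CCATATTAGG at 105 to 96 and CCATATATGG at 83 to 74 bases before the start. Egr2 held CCATATATGG at the same distance, 83 to 74 bases before its start. CArG boxes were found in 2 of the 7 member windows and in 1.5% of all 33469 windows of the same length. Ier2 held the full cAMP response element at 66 to 59 bases before its start, as 1.59% of all windows did. The shorter form TGACG stood in 5 of the 7 (Nr4a1, Egr1, Egr2, Junb and Ier2), against 18.2% of all windows, and Nr4a1 had 4 copies, all on the minus strand. Nr4a1 also held an EGR site, at 73 to 65 bases before its start, as did 4.29% of all windows, and the AP-1 site was in 0 of the 7 and in 6.34% of all windows. A match describes these letters only and was not set against binding.

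Partners and corepressors of these factors included the smallest unadjusted p of the 4 related lists, that of Jdp2 (0.00383 by limma). Of 10 such genes 3 (30%) had an unadjusted p under 0.05, against 12.4% of all features, 2 of them higher and 1 lower in DPG. Jdp2, which encodes a dimerisation partner of JUN that represses AP-1 sites, read 0.113, 0.102 and 0.103 in the DPG rats, against 0.0660, 0.0737 and 0.0852 in the water rats. The groups did not overlap, and the log2 fold change was 0.51 ± 0.11 (SE, n = 3 each), with an adjusted p = 0.256 by limma. Batf, whose product pairs with JUN in lymphocytes, read 0.111, 0.0946 and 0.108 in the DPG rats and 0.0626, 0.0934 and 0.0703 in the water rats, a log2 fold change of 0.49 ± 0.16 (SE) with no overlap. On GRCr8 Fos, Jdp2 and Batf follow each other as protein-coding genes on chromosome 6. Their tested probes, 1 for each gene, were lower in DPG for Fos and higher for Jdp2 and Batf. The second Fos probe, at or near background, had a higher mean in DPG. Maf, a bZIP factor, was at -0.34 ± 0.18 (SE).

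Other immediate early transcription factors showed 9 genes above and 5 below 0 among the 14 of 18 that could be tested, with a median log2 fold change of 0.12. At an unadjusted p of 0.05, 2 passed (14.3%, near the 12.4% of all features), both higher in DPG (6.68% of all features). Fosl2, a FOS family member, read 0.160, 0.159 and 0.151 in DPG and 0.124, 0.118 and 0.147 in water. Its groups did not overlap, and its log2 fold change was 0.28 ± 0.10 (SE), with 0.08 and 0.20 on its other probes. Csrnp1, a nuclear factor induced by AXIN, was at 0.42 ± 0.15 (SE), with 0.28 on its second probe. Nr4a2, a close relative of Nr4a1, was at 0.21 ± 0.16 and Ier5 at -0.30 ± 0.22 (SE each). Fosl1, Egr4 and Nr4a3 were not well above background on any array, and Egr3 was so on at most 4 of 6.

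Feedback and effector genes of the same response lay around 0, with 15 of 32 above and 17 below and a median of -0.02 on the log2 scale. Only Ppp1r15a, the phosphatase subunit that reverses the integrated stress response, had an unadjusted p under 0.05 (1 of 32, 3.13%, against 12.4% of all features), at 0.21 ± 0.07 (SE, n = 3 each), with 0.13 on its second probe. Dusp5, a dual-specificity phosphatase, was at 0.36 ± 0.17, while Plk2, a stress-induced kinase, was at -0.28 ± 0.13 and Spry2, a brake on growth factor signalling, at -0.24 ± 0.11 (SE each).

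Upstream kinases and factors had 11 of 19 genes above 0, a median of 0.03, and 2 genes at an unadjusted p of 0.05 (10.5%, against 12.4% of all features), both lower in DPG. Egfr, the receptor for epidermal growth factor, read 1.27, 1.22 and 1.07 in the DPG rats, against 1.30, 1.51 and 1.51 in the water rats. The groups did not overlap, and its log2 fold change was -0.28 ± 0.10 (SE), with -0.19 on its second probe. Crem, a relative of CREB, was at -0.21 ± 0.09 (SE), and its 7 probes lay between -0.24 and -0.08. Atf1, also of that family, was at 0.19 ± 0.08 (SE), with 0.04 and 0.05 on its other probes. The limma adjusted p of the named genes of these 4 lists lay between 0.256 and 0.620.

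**Figure D5:**
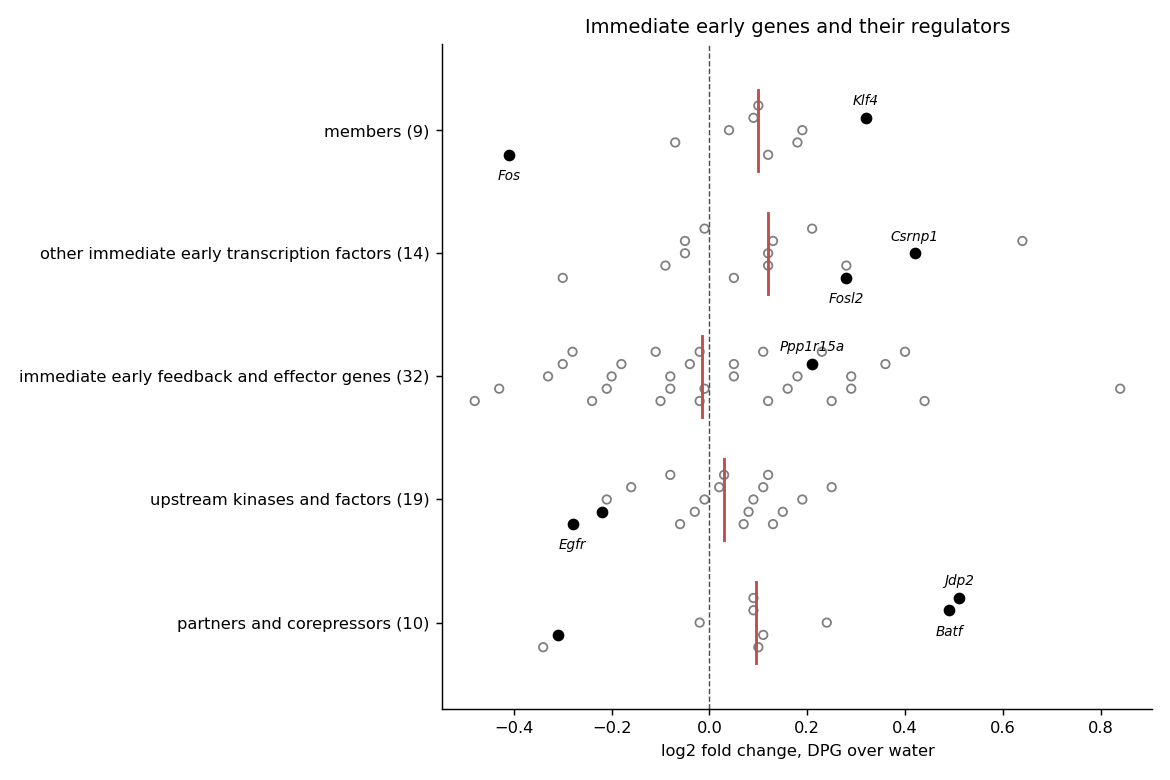
Log2 fold change, DPG over water, of the 9 tested members and of 4 lists of related genes (the number tested stands in brackets). Each circle is a gene, black where its unadjusted p lies under 0.05 by limma and named where the text describes it, and red lines are medians (0.10 for the members, 0.12, -0.02, 0.03 and 0.10 for the lists from top to bottom).

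Genes with the pattern most like the members were sought among 11915 other named genes by the root mean square difference of centred log2 values over the 6 arrays. Nearest to the mean of the 9 tested members were Bex4 (0.0204), Cd36 (0.0303), Strn3 (0.0331), Ildr1 (0.0358) and Plp2 (0.0374). Among the members themselves Ier2 (0.0762) and Egr1 (0.0938) lay nearest to that mean and Nr4a1 (0.293) farthest from it. This measure counts the size of the differences between rats as well as their direction. Nr4a1 had the same sign as that mean on all 6 arrays, but mostly with larger values. Nearest to Fos were Pde4d (0.0408), Tmod2 (0.0469), Bmerb1 (0.0650), Slc30a2 (0.0659) and Fbll1 (0.0747), with log2 fold changes between -0.41 and -0.34. As these genes were picked for values like those of Fos, fold changes near that of Fos follow from the choice. The nearest other member to Fos was its family relative Fosb, at 0.229.

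The DPG and water groups hold 3 rats each, so an exact two-sided permutation test of a single gene cannot give a p below 0.1. Of the 3 thick limb and distal tubule markers, the thick limb genes Umod (log2 fold change 0.25 ± 0.07, SE) and Slc12a1 (0.47 ± 0.13) were above in every DPG rat, while the distal tubule gene Slc12a3 was at -0.02 ± 0.09 with overlap. Their summed level, mostly Umod, was 636 to 686 in DPG and 528 to 570.4 in water. The sums of the other marker lists overlapped between the groups, and each follows its brightest probes. The 6 proximal tubule genes had 802 to 869 in DPG and 859 to 975 in water, with Slc5a12 (-0.29 ± 0.08) and Slc5a2 (-0.29 ± 0.10) below in every DPG rat. The other proximal tubule genes overlapped between the groups. Within this list 1 gene lay above 0 and 5 below, with a median of -0.13. The 7 leukocyte genes had 100.3 to 136 in DPG and 102 to 124 in water, mostly Lyz2 and Cd74. Of them 6 had a log2 fold change above 0 and 1 below, with a median of 0.13. The 1 below was the dim B cell gene Cd79b, at -1.07 ± 0.36 with no overlap. The T cell gene Cd3e, dim as well, was at 0.89 ± 0.34 with overlap. The 5 endothelial genes had 26.4 to 29.1 in DPG and 26.1 to 30.9 in water, with Pecam1 at 0.18 ± 0.07 and no overlap. Of these 5, however, 2 had a log2 fold change above 0 and 3 below, with a median of -0.06. For 5 smooth muscle and mural genes the sum was 3.43 to 4.39 in DPG and 3.04 to 3.71 in water, with Rgs5 at 0.29 ± 0.10 and no overlap. Among them 3 lay above 0 and 2 below, with a median of 0.14. The podocyte gene Nphs1 was at -0.28 ± 0.11, also with no overlap. The 4 collecting duct and medulla genes had 108 to 150 in DPG and 104 to 138 in water. The 2 adipocyte genes had 0.909 to 1.32 in DPG and 1.13 to 1.51 in water and ran opposite ways, Adipoq at -0.45 ± 0.14 with no overlap and Fabp4 at 1.89 ± 0.70. Apart from Slc12a3, the genes named here as single values had an unadjusted p under 0.05 by limma, and none passed after adjustment. Itgam and Cnn1, markers of leukocytes and smooth muscle, were well above background on at most 2 of 6 arrays. The part of these markers in the values of Fos and Klf4 was not tested.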

How the data were processed

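The file headers of the 6 deposited arrays name the scanner software as Agilent Feature Extraction 10.7.1.1. Per the file headers, the processed intensity of a spot is linear, background-subtracted and spatially detrended, and arrays were not scaled to each other. The authors also deposited a series-wide table of linear values, each a ratio of the processed signal to a constant near the 75th percentile of its array, as found by setting it against the scanner values of 61537 probes (column medians 0.110, 0.111 and 0.114 for water 1 to 3 and 0.111, 0.108 and 0.112 for DPG 1 to 3). It is not centred per probe, its direction is that of the signal, and the sources used here do not say how it was scaled. Flags of 0 or 1 per spot come from the same software, per the file headers.

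Control spots were dropped, and no probe was saturated (0 spots). The 75th percentile of each array was subtracted from its log2 intensity. Probes were kept if some group had them well above background in all 3 rats, less 23 with outlier flags, which left 40383. Probes were named by accession through RefSeq genes of GRCr8 (28206 probes with 1 symbol, 33331 without), and the array design is older, so no array coordinates are given. The brightest kept probe stood for a gene, giving 29647 features. DPG was compared with water in limma 3.58.1 (R 4.3.3; lmFit and eBayes, two-sided, 4 residual and 1.95 prior degrees of freedom) with Benjamini-Hochberg adjustment over all features. The script was tested on simulated data. The members and gene lists were chosen with earlier results of these data known. Up to 4 genes of each related list were named by smallest p. Single cell type markers were named after their values were seen. Some genes picked in this way are left unreported. Groups came from the labels. Alternatives were normexp (offset 50, on median pixel intensity), median and quantile scaling, other filters and probe rules, the deposited table, a variance trend, a block for the replicate number, and each rat left out.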

Additional observations from a re-analysis of the deposited data

How the results depend on the processing

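None of the 9 tested members passed the adjusted threshold under any of the 17 alternatives, and over all features the adjusted count was 0 except without DPG 2, where 1 feature passed (transcript XM_344619, adjusted p = 0.0324 by limma), so that it ranged from 0 to 1 with a rat left out; the cause was not tested. The count of features at an unadjusted p of 0.05 stayed within 1.5 times of 3669, with a range from 2537 without DPG 1 to 4480 with normexp. The count of members at an unadjusted p of 0.05 was 1 with normexp and 1 with an intensity trend and robust variance, against 2, since Fos did not pass there (unadjusted p = 0.0611 and 0.0534 by limma). With a rat left out it ranged from 0 to 3: it was 0 without DPG 1, 1 without DPG 2, water 1 or water 3, and 3 without water 2, where Atf3 was the third; fewer rats were tested. The median log2 fold change of the members ran from 0.01 without water 3 to 0.22 without DPG 3, against 0.10. With a rat left out, signs turned for Fosb (from -0.11 without DPG 1 to 0.01 without DPG 2), for Nr4a1 (from -0.04 without water 3 to 0.48 without DPG 3) and for Jun (-0.14 without DPG 2 and without water 3, up to 0.23 without DPG 3). The sign of Jun also turned with the mean of its probes (-0.03) and with the dimmer probe (-0.10), an alternative chosen after seeing the data. The replicate number as a block gave 2987 features at an unadjusted p of 0.05 and 2 members, with an adjusted count of 0. Over all features, same-numbered rats correlated at -0.02, -0.09 and -0.07 in their deviations from the group means. Rats of unlike number correlated at -0.06 to 0.13, so the numbers showed no pairing over all features. Such a correlation cannot show an order shared by only a few genes, and pairing in the members was not tested. With the block the SE of Nr4a1 was 0.10, against 0.32 without it (log2 fold change 0.19, adjusted p = 0.578 by limma with the block). That of Jun was 0.11, against 0.24, while that of Ier2 was 0.08, against 0.07. Each slide holds 1 group, so a block for the slide could not be fitted. Egr2 and the second Fos probe were at or near background, which limits what these arrays can show of them.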
